A study of Mus musculus with 10 samples.

Results

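The p53 target genes described here are 10 genes that the transcription factor p53 is known to activate: Cdkn1a, Ccng1, Plk2, Bax, Bbc3, Pmaip1, Fas, Mdm2, Phlda3 and Zmat3. They were taken by symbol from a table of 55359 mouse genes, where each symbol matched exactly 1 gene. The 10 were chosen with earlier results of these data known, so their counts, medians and tests describe these libraries. Their transcripts were compared between whole kidneys of 2 groups of mice, all male, with no engineered allele named in the labels. The IRI group (labelled AKI in the sample titles) had kidney ischaemia-reperfusion surgery, with 30 min of ischaemia and 24 h of reperfusion, and gave 5 libraries. The Sham group (labelled Ctrl) had surgery without ischaemia and gave 5 libraries. The labels do not give the age, strain or diet of the mice, whether 1 or both kidneys were clamped, or when Sham kidneys were taken after surgery. They also do not tie each library to a mouse of its own, so the p-values reflect variation among these libraries, part of which may be technical.

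p53, encoded by Trp53, is a transcription factor that is kept at low levels by the ubiquitin ligase Mdm2 and accumulates after DNA damage, hypoxia and other stress, largely through longer protein life rather than more mRNA. Its targets fall into classes of opposite outcome: some stop the cell cycle and leave time for repair, others open the mitochondrial or the death receptor route to apoptosis, and Mdm2 itself closes a negative feedback loop. In injured kidney tubules the arrest target p21, the product of Cdkn1a, is a familiar marker of the response to ischaemia.

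p53 binds DNA at a tandem of decamers, each with a central C and G at fixed places. The windows from 250 bases before to 50 bases after annotated starts were searched for this decamer, whose consensus is its own reverse complement, so that a search of 1 strand covers both. RefSeq windows of build GRCm38.p6 were found for 8 of the 10 genes (11 windows, since Cdkn1a and Bbc3 have more than 1 start), and not for Pmaip1 and Zmat3. Exact decamers lay in 4 of the 11 windows, those of Cdkn1a (1 of its 2), Ccng1, Bax and Mdm2, against 8.36% of all 32851 windows. A tandem of decamers with at most 2 mismatches in all and at most 13 bases between them lay in a window of Cdkn1a, Ccng1 and Bax, against 4.09% of all windows. The 4 windows with an exact decamer are shown because they hold arrest, death and feedback targets of unequal response. Each is written 5′ to 3′ on the strand of the gene, and capitals mark the decamers of the exact matches and of the tandems. The windows are chr17:29090729-29091028 (+) for Cdkn1a, chr11:40755237-40755536 (-) for Ccng1, chr7:45466849-45467148 (-) for Bax and chr10:117710709-117711008 (-) for Mdm2.
Cdkn1a: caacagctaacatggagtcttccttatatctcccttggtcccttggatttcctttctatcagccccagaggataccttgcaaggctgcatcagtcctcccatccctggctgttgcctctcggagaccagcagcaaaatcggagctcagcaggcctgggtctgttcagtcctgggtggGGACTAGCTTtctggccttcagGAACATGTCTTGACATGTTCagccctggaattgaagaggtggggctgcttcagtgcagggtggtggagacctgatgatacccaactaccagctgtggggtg
Ccng1: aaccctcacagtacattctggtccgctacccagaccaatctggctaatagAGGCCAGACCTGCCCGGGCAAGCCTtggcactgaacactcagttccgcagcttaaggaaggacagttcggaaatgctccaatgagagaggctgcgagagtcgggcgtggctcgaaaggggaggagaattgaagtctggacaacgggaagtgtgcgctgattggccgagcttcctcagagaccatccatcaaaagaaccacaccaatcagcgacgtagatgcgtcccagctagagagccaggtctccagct
Bax: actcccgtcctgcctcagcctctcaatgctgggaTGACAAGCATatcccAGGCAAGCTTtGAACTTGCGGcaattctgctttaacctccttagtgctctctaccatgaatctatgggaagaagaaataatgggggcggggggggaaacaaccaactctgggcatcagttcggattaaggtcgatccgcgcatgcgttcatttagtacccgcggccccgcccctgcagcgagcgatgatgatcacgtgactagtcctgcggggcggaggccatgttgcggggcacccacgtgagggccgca
Mdm2: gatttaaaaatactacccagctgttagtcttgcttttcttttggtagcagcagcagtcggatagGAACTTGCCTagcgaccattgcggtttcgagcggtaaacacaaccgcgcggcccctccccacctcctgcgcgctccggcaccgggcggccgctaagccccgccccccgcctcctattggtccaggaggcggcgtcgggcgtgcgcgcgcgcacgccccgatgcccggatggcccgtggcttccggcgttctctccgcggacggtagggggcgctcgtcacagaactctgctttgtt
In the Cdkn1a window, which belongs to the more upstream of its annotated starts, exact decamers began at -73 and -51 relative to the start. They form a tandem with 12 bases between them and 0 mismatches. A tandem without a gap also began at -51 and read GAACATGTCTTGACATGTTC, with 1 mismatch. In the Ccng1 window such a tandem, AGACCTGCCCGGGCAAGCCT, began at -195, also with 1 mismatch. The decamers of Bax began at -216, -201 and -190, and the single exact decamer of Mdm2 at -186. No match was found in these windows of Bbc3, Fas, Phlda3 and Plk2, which says only that these letters are not in those windows.

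Library totals were 13147899 to 17307039 counts in IRI and 13199234 to 18603272 in Sham. Replicates always differed beyond counting noise, with 8.99 to 109 as the chi-square of a pair over its degrees of freedom. Kidney markers were detected in both groups, with summed levels of 5612 to 12590 FPKM in IRI and 38080 to 53670 FPKM in Sham over 9 genes, of which the androgen-regulated tubule gene Kap and the thick ascending limb gene Umod were the most abundant. FPKM is a count scaled by exonic length and by the library total, and allows levels of different genes to be compared. IRI replicate 1 stood apart, with 2.31% of its counts in the mitochondrial rRNAs mt-Rnr1 and mt-Rnr2, against 0.214% to 0.450% in the other IRI libraries and 0.230% to 0.267% in Sham libraries. Fold changes below use TMM factors; with library totals as the scale, log2 fold changes were higher by 0.25 in the median over all genes, and such values are given for each named gene whose call changed.

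Nearly all of the p53 targets were higher after ischaemia and reperfusion, but by unequal amounts. All 10 passed the filter of at least 1 FPKM in 5 or more libraries. By edgeR's quasi-likelihood test over 13324 genes, with Benjamini-Hochberg adjustment and a call at an adjusted p under 0.05, 9 were higher in IRI and 1, Ccng1, was lower, where 34.5% of all tested genes were higher and 32.4% lower. With library totals the same 9 were higher and none was lower, where 47.4% of all tested genes were higher and 23.6% lower. At least 2-fold, 4 were higher (Cdkn1a, Pmaip1, Phlda3 and Bbc3), where 11.9% of all tested genes were. The median log2 fold change of the 10 genes was 0.82, against 0.05 over all tested genes. Because the genes were chosen with earlier results of these data known, these counts and medians only describe these libraries. In 7 of the 10, all but Ccng1, Plk2 and Bax, every IRI library lay above every Sham library in FPKM. This held in 36.7% of all tested genes. FPKM rests on library totals, and the groups overlap for Fas once TMM factors are applied.

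**Figure D1:**
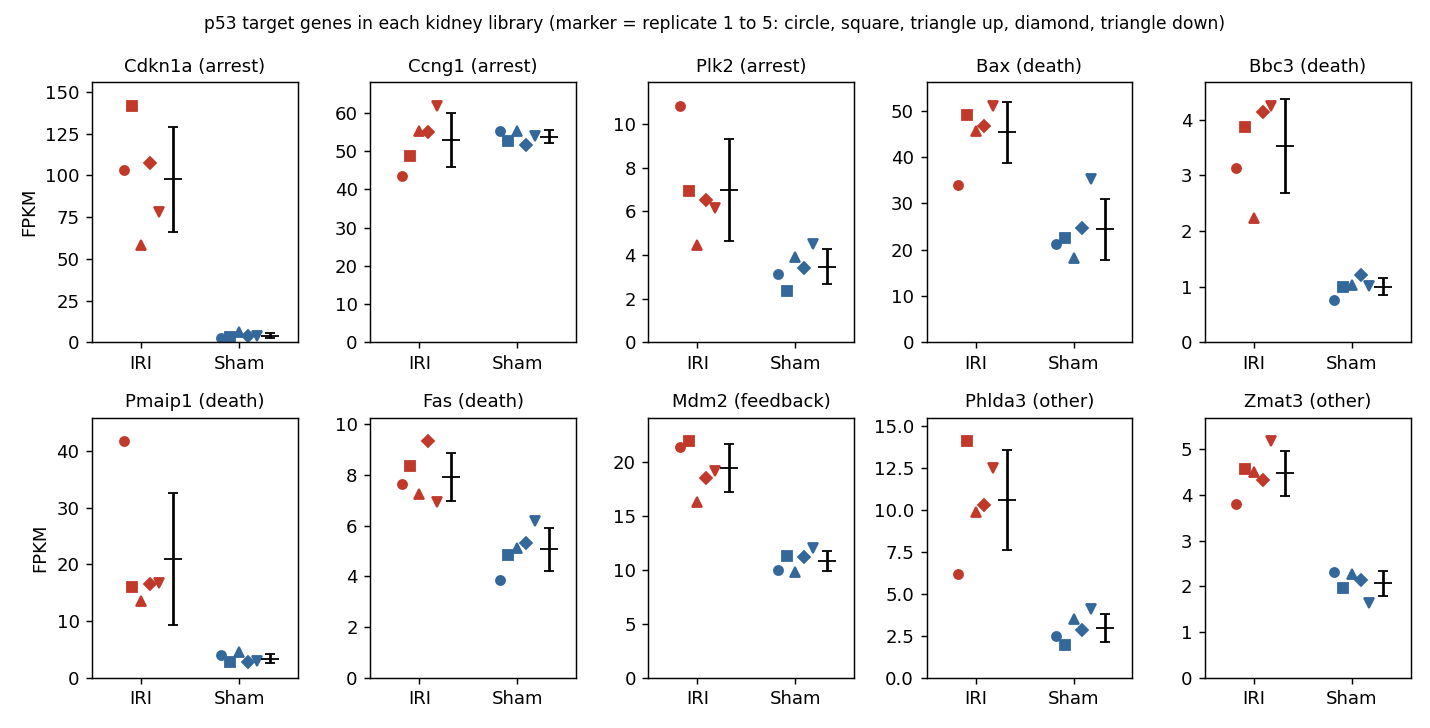
Level (FPKM, linear axis from 0) of each of the 10 p53 target genes in the 5 IRI (red) and 5 Sham (blue) libraries, with the group mean and SD as black bars and the replicate number as marker shape. Cdkn1a in IRI lies between 58.3 and 142 FPKM, above every Sham library, while the Ccng1 values of the groups overlap.

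Among the arrest targets, Cdkn1a, which encodes the cyclin-dependent kinase inhibitor p21, had the largest change of the 10. It had 103, 142, 58.3, 107 and 77.8 FPKM in IRI replicates 1 to 5, against 2.84, 3.45, 6.24, 3.60 and 3.95 FPKM in Sham replicates 1 to 5. The lowest IRI library was thus far above Sham replicate 3, the highest of its group. Cdkn1a rose by 4.36 ± 0.28 (log2 fold change ± SE; edgeR adjusted p = 1.91e-07), a 20.5-fold difference that 0.458% of tested genes exceeded. It lies on chromosome 17 from 29309950 to 29319701 (GRCm39, plus strand, from the deposited table). A gene on the opposite strand within it, AC167363.2, had at most 59 counts in an IRI library and 5 in a Sham library. Cdkn1a had at least 3587 counts in each IRI library and 150 in each Sham library. The labels do not say whether strand was used in counting, so reads of these overlapping genes cannot be told apart.

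Ccng1 encodes cyclin G1, an atypical cyclin that acts at the cell cycle and also on Mdm2 through the phosphatase PP2A. Its level was 43.4, 48.8, 55.4, 54.9 and 61.8 FPKM in IRI, against 55.4, 52.7, 55.3, 51.6 and 54.1 FPKM in Sham. The groups overlapped, with IRI replicates 1 and 2 below every Sham library and IRI replicate 5 the highest of all. The log2 fold change was -0.28 ± 0.08 with TMM factors (edgeR adjusted p = 0.0108) and -0.02 with library totals (edgeR adjusted p = 0.853), so the call as lower depended on the scaling, and it was also lost with no filter (-0.26, edgeR adjusted p = 0.0656). The deposited FPKM averaged 52.9 ± 7.01 in IRI and 53.8 ± 1.65 in Sham (SD, n = 5 each).

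Plk2, a polo-like kinase of the checkpoint response, had 10.8, 6.94, 4.46, 6.54 and 6.16 FPKM in IRI, against 3.13, 2.36, 3.89, 3.42 and 4.52 FPKM in Sham. IRI replicate 3 lay just under Sham replicate 5, the highest of its group, while the other 4 IRI libraries lay above all Sham libraries. Plk2 rose by 0.78 ± 0.24 (edgeR adjusted p = 0.0132), or by 0.52 without IRI replicate 1 (edgeR adjusted p = 0.0232).

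All 4 death targets were called higher. Pmaip1 encodes NOXA, a BH3-only protein that neutralises anti-apoptotic Bcl-2 relatives. It had 41.7, 16.04, 13.6, 16.6 and 16.7 FPKM in IRI, against 3.92, 2.79, 4.59, 2.69 and 2.93 FPKM in Sham. The groups did not overlap, and IRI replicate 1 was well above the other 4 IRI libraries. Pmaip1 rose by 2.41 ± 0.34 (edgeR adjusted p = 5.44e-05), or by 1.93 without IRI replicate 1.

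Bbc3 encodes PUMA, a BH3-only protein that activates Bax and Bak. It was the least abundant of the 10 genes in both groups, with 3.13, 3.87, 2.23, 4.14 and 4.25 FPKM in IRI, against 0.76, 0.99, 1.03, 1.21 and 1.02 FPKM in Sham. Every IRI library lay above every Sham library. Bbc3 rose by 1.55 ± 0.21 (edgeR adjusted p = 3.63e-05), from counts of 82 to 152 per IRI library and 24 to 39 per Sham library. Sham replicates 1 and 2 lay under 1 FPKM, so the gene needed IRI libraries to pass the filter. With no filter it rose by 1.58 (edgeR adjusted p = 1.32e-05).

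Bax encodes the pore-forming protein of the mitochondrial outer membrane on which the BH3-only proteins act. It was abundant in both groups, with 34.1, 49.2, 45.6, 46.8 and 51.1 FPKM in IRI, against 21.3, 22.4, 18.1, 24.8 and 35.3 FPKM in Sham. The ranges overlapped at a single pair of libraries, IRI replicate 1 and Sham replicate 5. Bax rose by 0.64 ± 0.16 (edgeR adjusted p = 0.00383).

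Fas encodes the death receptor CD95, which is also made by lymphocytes. It had 7.66, 8.37, 7.26, 9.33 and 6.94 FPKM in IRI, against 3.85, 4.85, 5.11, 5.33 and 6.20 FPKM in Sham. In FPKM, which rests on library totals, the groups did not overlap, but the gap between them was small. With the TMM factors of IRI replicate 5 (1.141) and Sham replicate 5 (0.92) applied, the former falls below the latter. Fas rose by 0.39 ± 0.14 (edgeR adjusted p = 0.0267), the smallest increase of the 9 (0.64 with library totals), and was not called without IRI replicate 4 (0.34, edgeR adjusted p = 0.0698). The 9 T, NK and B cell markers summed to 0.470 to 0.850 FPKM in IRI and 1.88 to 3.71 FPKM in Sham, led by Cd79a and Nkg7, with Ncr1 and Ms4a1 at 0 counts in IRI. None of them passed the filter, and their part in the level of Fas was not tested. In such bulk libraries, fewer cells of a type and less RNA per cell cannot be told apart.

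Mdm2, the ubiquitin ligase that targets p53 for degradation, had 21.3, 21.9, 16.3, 18.5 and 19.1 FPKM in IRI, against 9.96, 11.3, 9.81, 11.2 and 11.98 FPKM in Sham. The groups did not overlap. Mdm2 rose by 0.59 ± 0.11 (edgeR adjusted p = 5.26e-04), or 1.51-fold.

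The remaining targets also rose. Phlda3, a pleckstrin homology protein that competes with the kinase Akt for membrane lipids, had 6.19, 14.1, 9.86, 10.3 and 12.5 FPKM in IRI, against 2.50, 1.93, 3.48, 2.87 and 4.10 FPKM in Sham. IRI replicate 1 was the lowest IRI library, yet above all Sham libraries. Phlda3 rose by 1.57 ± 0.23 (edgeR adjusted p = 7.12e-05). Zmat3, a zinc finger RNA-binding protein that regulates splicing and mRNA stability, had 3.79, 4.57, 4.51, 4.33 and 5.17 FPKM in IRI, against 2.32, 1.97, 2.27, 2.14 and 1.64 FPKM in Sham. Its libraries were tightly grouped without overlap, and it rose by 0.86 ± 0.10 (edgeR adjusted p = 1.51e-05).

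**Figure D2:**
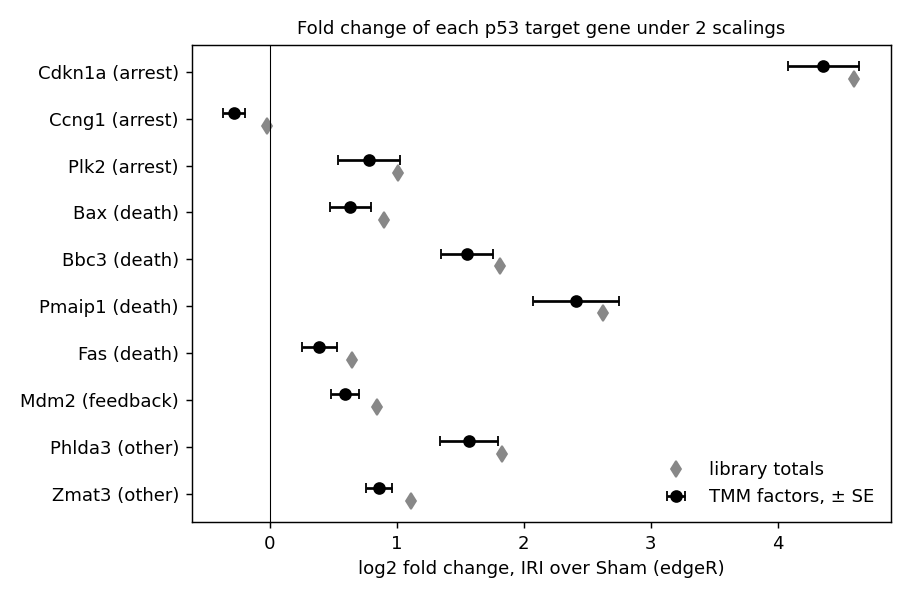
Log2 fold change, IRI over Sham, of each p53 target gene by edgeR, with TMM factors (black circles, bars are SE) and with library totals (grey diamonds). Cdkn1a stands at 4.36, Pmaip1 at 2.41, Phlda3 at 1.57 and Bbc3 at 1.55, and Ccng1 at -0.28 lies near 0 with library totals.

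The order of levels changed with these unequal responses. In IRI, Cdkn1a was the most abundant of the 10, with 97.7 ± 31.6 FPKM, ahead of Ccng1 with 52.9 ± 7.01 and Bax with 45.4 ± 6.67. In Sham, Cdkn1a was in place 5 with 4.02 ± 1.31 FPKM, behind Ccng1 (53.8 ± 1.65), Bax (24.4 ± 6.57), Mdm2 (10.8 ± 0.931) and Fas (5.07 ± 0.849; SD, n = 5 for each). In IRI the order went on with Pmaip1, Mdm2, Phlda3, Fas, Plk2, Zmat3 and Bbc3, and in Sham, after Cdkn1a, with Plk2, Pmaip1, Phlda3, Zmat3 and Bbc3. Most neighbours in this order, which is by mean FPKM, were not apart. Pmaip1 was above Mdm2 in only 1 of the 5 IRI libraries, replicate 1. In Sham, Plk2 was above Pmaip1 in 2 of the 5 libraries. In IRI the ranges overlapped in 8 of 9 neighbouring pairs, all but Mdm2 and Phlda3, and so also for Cdkn1a and Ccng1, although Cdkn1a was above Ccng1 within each of the 5 IRI libraries. In Sham the ranges overlapped in 5 of 9 pairs, those from Fas through Cdkn1a, Plk2, Pmaip1 and Phlda3 to Zmat3.

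Whether arrest and death targets changed by different amounts was asked within each library, where a ratio of counts of 2 genes does not depend on scaling. The log2 ratio of each of 3 arrest targets to each of 4 death targets was compared between groups by permuting the library labels in all 252 ways (exact permutation test, two-sided). The smallest p that it can give is 0.00794, and p-values were adjusted over the 12 pairs. The 3 arrest targets differed among themselves: the ratios rose for Cdkn1a, fell for Ccng1 and were mixed for Plk2. In all, 4 ratios were higher, 6 lower and 2 not called.

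Cdkn1a rose relative to every death target. On the scale of levels, its FPKM was 3.04, 2.88, 1.28, 2.29 and 1.52 times that of Bax in IRI, against 0.134, 0.154, 0.344, 0.145 and 0.112 times in Sham. Cdkn1a was thus more abundant than Bax in each IRI library and less abundant in each Sham library. The log2 count ratio changed by 3.67 for Bax, 3.94 for Fas, 2.81 for Bbc3 and 2.07 for Pmaip1, with no overlap between groups in any of the 4 pairs (exact permutation p = 0.00794, adjusted p = 0.0119 for each, n = 5 per group). The change over Pmaip1 was the smallest, with log2 ratios of 1.69, 3.52, 2.48, 3.07 and 2.60 in IRI and -0.08, 0.68, 0.82, 0.80 and 0.81 in Sham.

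Ccng1 fell relative to every death target. The log2 ratio changed by -0.95 for Bax, -1.81 for Bbc3 and -2.56 for Pmaip1, without overlap (exact permutation p = 0.00794, adjusted p = 0.0119 for each, n = 5 per group). For Fas it changed by -0.68 (exact permutation p = 0.0159, adjusted p = 0.0212), with 1 IRI library, replicate 5, inside the Sham range.

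Plk2 fell relative to Pmaip1, with a change of -1.54 and no overlap (exact permutation p = 0.00794, adjusted p = 0.0119). Relative to Bbc3 it changed by -0.79 with overlapping groups (exact permutation p = 0.0317, adjusted p = 0.0381), a call that was lost when any of 7 of the 10 libraries was left out. Relative to Bax (0.07, adjusted exact permutation p = 0.865) and Fas (0.33, adjusted exact permutation p = 0.242) no difference was called, which does not show that they changed alike.

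**Figure D3:**
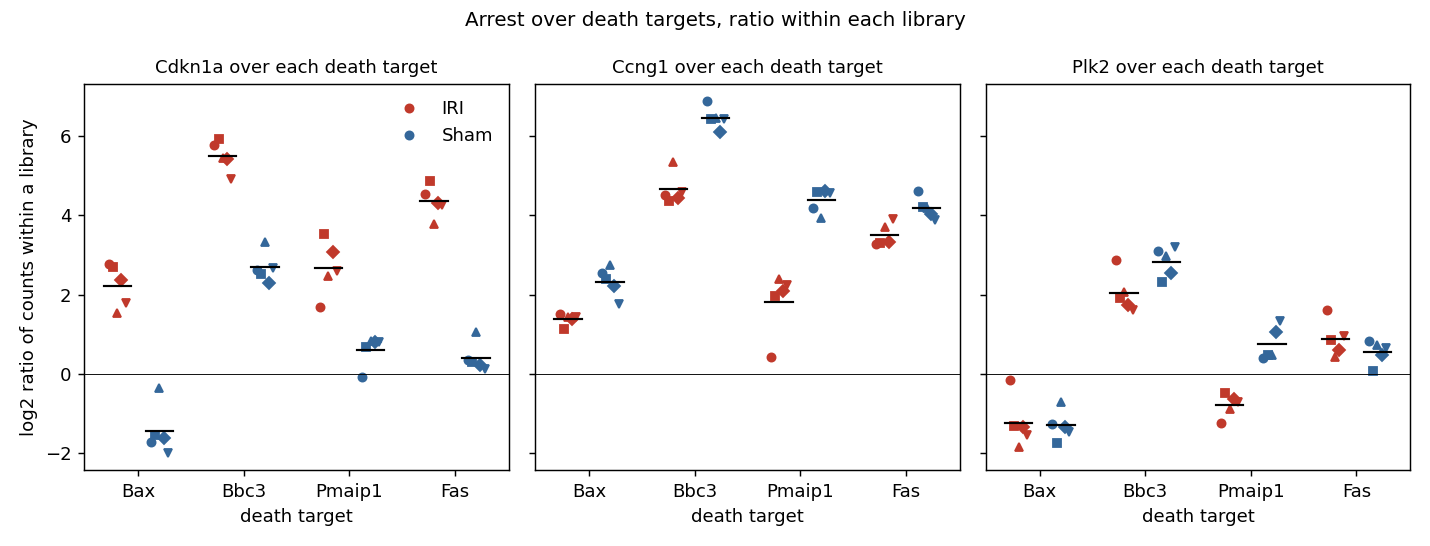
Log2 ratio of counts of each arrest target to each death target within a library (IRI red, Sham blue, marker shape as replicate number, bars are group means). The Cdkn1a ratios are higher in IRI for all 4 death targets, the Ccng1 ratios lower, and the Plk2 ratios to Bax and Fas overlap.

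The IRI libraries also differed from each other in which targets were high. The places given here are by FPKM, which rests on library totals. TMM factors were 0.998 in IRI replicate 1 and 1.097 to 1.141 in the other IRI libraries. Close places, such as Mdm2 at 21.3 FPKM in replicate 1 and 21.9 in replicate 2, can therefore differ with TMM factors. IRI replicate 1 had the highest Pmaip1 and Plk2 of its group and the lowest Bax, Ccng1, Phlda3 and Zmat3. IRI replicate 3 had the lowest Cdkn1a, Plk2, Bbc3, Pmaip1 and Mdm2, so that it was lowest for 5 of the 10. IRI replicate 5 was highest for 4, namely Ccng1, Bax, Bbc3 and Zmat3, and replicate 2 for Cdkn1a, Mdm2 and Phlda3. Beside these values, 8 neutrophil markers, led by S100a9 and S100a8, summed to 102, 47.3, 19.6, 34.8 and 72.2 FPKM in IRI replicates 1 to 5 and to 0.940 to 3.27 FPKM in Sham libraries, with Ly6g, Mpo and Elane at 0 counts in Sham. The 8 monocyte and macrophage markers, led by Lyz2 and Cd14, summed to 60.4 to 97.5 FPKM in IRI and 25.9 to 45.8 FPKM in Sham, but these genes were split: of 5 tested, 3 were higher, 1 lower and 1 not called, and with no filter 3 of the 8 were higher and 2 lower (median -0.34). Endothelial markers (5 genes, led by Emcn and Pecam1) summed to 62.8 to 95.6 FPKM in IRI and 41.2 to 61.4 FPKM in Sham, with 3 higher, 1 lower and 1 not called. Fibroblast and pericyte markers (5 genes, led by Acta2 and Pdgfrb) summed to 63.3 to 200.5 FPKM in IRI and 38.6 to 53.7 FPKM in Sham, the lowest IRI value in replicate 1, with 2 genes higher, 1 lower and 2 not called. Red blood cell markers (5 genes, led by Hbb-bs and Hba-a1) summed to 181 to 340 FPKM in IRI and 105 to 179 FPKM in Sham, with 3 higher and 2 not called. Of all tested genes 34.5% were higher and 32.4% lower, or 19.3% and 18.0% of 30454 genes with no filter. With library totals, on which FPKM also rests, 4 fibroblast and pericyte markers were higher and 1 lower. Red blood cell markers then had 4 higher and 0 lower, endothelial markers 3 and 0, and monocyte and macrophage markers 3 and 1. On that scale 47.4% of all tested genes were higher and 23.6% lower. The part of these cells in the levels of the p53 targets was not tested.

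**Figure D4:**
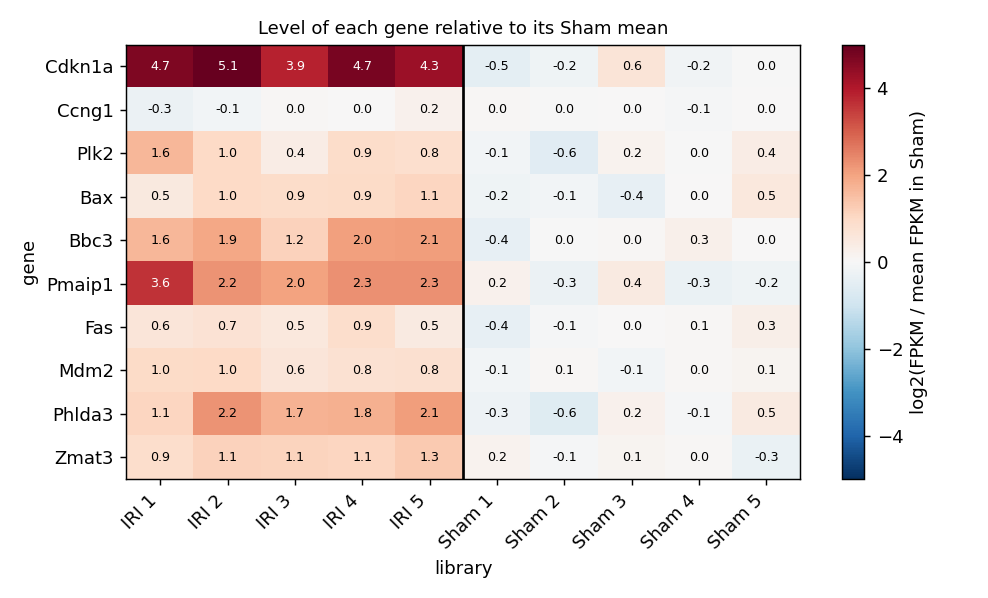
Level of each p53 target gene in each library as log2 of its FPKM over the mean FPKM of the Sham libraries, with IRI libraries left of the line and Sham libraries right of it. Cdkn1a is 3.86 to 5.14 in IRI, Pmaip1 is 3.62 in IRI replicate 1 and 2.01 to 2.30 in the other IRI libraries, and Ccng1 is between -0.31 and 0.20.

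The p53 gene and its tested regulators had log2 fold changes within 1 unit of 0 with TMM factors. Trp53 itself had 9.73, 8.40, 13.4, 9.96 and 11.97 FPKM in IRI, against 8.37, 8.20, 7.35, 7.57 and 9.70 FPKM in Sham. The groups overlapped, and its log2 fold change was 0.12 ± 0.13 (edgeR adjusted p = 0.4075), or 0.38 with library totals (edgeR adjusted p = 0.0194). Mdm4, a relative of Mdm2 that inhibits p53 without a ligase activity of its own, averaged 7.08 ± 0.534 FPKM in IRI and 7.53 ± 1.07 in Sham (SD, n = 5 each), and was called lower at -0.35 ± 0.10 (edgeR adjusted p = 0.0107) but not with library totals (-0.09, edgeR adjusted p = 0.474). Of 15 genes of p53 and its regulators, 10 passed the filter, and 2 were higher, 3 lower and 5 not called (median 0.02), where 34.5% of all tested genes were higher and 32.4% lower. The higher ones were Kat5, an acetyltransferase (0.44 ± 0.09), and the ubiquitin ligase Rchy1 (0.27, edgeR adjusted p = 0.0425), whose call was lost with no filter (edgeR adjusted p = 0.0512). By DESeq2 1 gene of the list was higher and 4 lower. The lower ones were the checkpoint kinases Chek2 (-0.85 ± 0.25) and Atr (-0.53 ± 0.13) beside Mdm4. With library totals 4 were higher and 0 lower, where 47.4% of all tested genes were higher and 23.6% lower, and neither Chek2 (-0.59, edgeR adjusted p = 0.0555) nor Atr (-0.28, edgeR adjusted p = 0.0836) was called. Trp63, Trp73, Atm, Chek1 and Cdkn2a missed the filter. With no filter the checkpoint kinase Chek1 was higher at 1.71 (edgeR adjusted p = 1.82e-05), with 409 counts over the IRI libraries and 106 over the Sham libraries. All 5 IRI libraries were above every Sham library in FPKM for Chek1. Atm was lower at -0.67 (edgeR adjusted p = 0.0346). Trp63, Trp73 and Cdkn2a were not called in that fit (edgeR adjusted p = 0.476, 0.364 and 0.705).

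Further p53 targets were described by the same classes. The lists were written with earlier results of these data known, so their counts describe these libraries, where 34.5% of all tested genes were higher and 32.4% lower (47.4% and 23.6% with library totals). The 9 other arrest and growth restraint targets had 7 members above the filter, with 5 higher and 0 lower (0 at an unadjusted p under 0.05, and 0 lower by DESeq2), with a median log2 fold change of 1.91. Gdf15, a secreted stress cytokine, rose by 3.90 ± 0.22, with 63.5 ± 14.6 FPKM in IRI and 3.61 ± 0.874 in Sham. Sfn, which encodes the epithelial 14-3-3 sigma protein that holds cells before mitosis, rose by 3.61 ± 0.20, with 78.8 ± 13.4 FPKM in IRI and 5.42 ± 1.88 in Sham. Plk3, a polo-like kinase, rose by 2.92 ± 0.26, with 63.7 ± 24.4 FPKM in IRI and 7.18 ± 1.25 in Sham (SD, n = 5 each). Sesn1 and Sesn2 were not called, and E2f7 and Rprm missed the filter. With no filter 7 of the 9 were higher, where 19.3% of 30454 genes with counts were.

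The 11 other death targets had 10 members above the filter, with 6 higher, 2 lower and 2 not called (median 0.38), or 7 higher and 1 lower with library totals. Apaf1, the scaffold of the apoptosome, rose by 1.63 ± 0.12, the death receptor gene Tnfrsf10b by 1.56 ± 0.19 and the nuclease gene Aen by 1.29 ± 0.11. Apaf1 (0.53 to 0.77 FPKM in Sham libraries) and Tnfrsf10b (0.38 to 0.70 FPKM) passed the filter only through the IRI libraries. With no filter Apaf1 rose by 1.65 (edgeR adjusted p = 1.74e-08) and Tnfrsf10b by 1.58 (edgeR adjusted p = 3.55e-06). The lower ones, named after their values were seen, were Bid (-1.28 ± 0.14), which links death receptors to mitochondria, and Ei24 (-0.28 ± 0.07). Ei24 was not called with library totals (-0.03, edgeR adjusted p = 0.796). Eda2r missed the filter. With no filter it was higher at 3.66 (edgeR adjusted p = 1.31e-05), with 271 counts over the IRI libraries and 18 over the Sham libraries. In that fit 6 of the 11 were higher and 2 lower (median 0.41), where 19.3% of 30454 genes with counts were higher and 18.0% lower. Of 15 repair and metabolic targets, 13 passed the filter, with 3 higher, 7 lower and 3 not called (median -0.34), or 4 higher and 4 lower with library totals. Gls2 and Sco2 missed the filter and were not called without it (edgeR adjusted p = 0.0602 and 0.842). The largest falls were those of Pank1, a kinase of coenzyme A synthesis (-2.99 ± 0.18), the mitochondrial reductase gene Fdxr (-1.35 ± 0.17) and the lysosomal fucosidase gene Fuca1 (-1.10 ± 0.10). The 3 higher ones, also named after their values were seen, were Prkab1 (1.04), Ddit4 (0.76) and Tigar (0.40). Beside these falls, the summed kidney markers were 5612 to 12590 FPKM in IRI and 38080 to 53670 FPKM in Sham. Of those 9 markers 5 were lower, 2 higher and 2 not called, and their part was not tested.

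The partners of the death targets include genes on either side of the apoptotic switch. Of 12 tested Bcl-2 family genes outside the 10 described, 7 were higher, 2 lower and 3 not called (median 0.39), or 7 higher and 1 lower with library totals, where 34.5% of all tested genes were higher and 32.4% lower (47.4% and 23.6% with library totals). The lower genes include Bid, which is also counted among the other death targets. Bmf, a BH3-only gene, rose by 1.72 ± 0.26, and Bak1, the pore-forming relative of Bax, by 1.53 ± 0.12. Bcl2l1, which encodes the anti-apoptotic Bcl-xL, rose by 1.40 ± 0.13, with 62.4 ± 11.5 FPKM in IRI and 19.97 ± 1.41 in Sham. Mcl1, another anti-apoptotic gene and the main partner of NOXA, was named after its values were seen: it rose by 1.27 ± 0.10, with 107 ± 10.2 FPKM in IRI and 37.6 ± 1.54 in Sham (SD, n = 5 each). In the Fas and caspase pathway, 5 of 11 tested genes were higher, 2 lower and 4 not called (median 0.17), or 7 higher and 1 lower with library totals. The same shares of all tested genes apply here. Apaf1 is also in this list. Cycs, which encodes cytochrome c, fell (-1.08 ± 0.14). The Fas ligand gene Fasl, at 0.124 ± 0.0627 FPKM in IRI and 0.0800 ± 0.0515 in Sham (SD, n = 5 each), missed the filter.

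On the side of the cell cycle, Cdkn1a was set beside the other CDK inhibitors and the cyclins, CDKs and replication genes. Of 5 tested CDK inhibitors, 3 were higher: Cdkn2b (1.16 ± 0.46), Cdkn1c (1.02 ± 0.32) and Cdkn2d (0.58 ± 0.17). Cdkn2b was at 1.82 without Sham replicate 3, and was not called without any 1 of 7 other libraries. It lay under 1 FPKM in Sham replicates 1, 2 and 5, and rose by 1.19 with no filter (edgeR adjusted p = 0.0284). Cdkn2c was lower (-0.47, edgeR adjusted p = 0.0242) but not called with library totals (-0.21, edgeR adjusted p = 0.275). Cdkn1b, which encodes p27, was not called (0.11 ± 0.10) but was higher with library totals (0.36, edgeR adjusted p = 0.0138), so that 4 of the 5 were then higher and 0 lower. Cdkn2a missed the filter. Whether Cdkn1a differed from these in response was not tested. Of 15 tested cyclins, CDKs and replication genes, 8 were higher, 7 not called and 0 lower (0 at an unadjusted p under 0.05, and 0 lower by DESeq2), with a median of 0.65, where 34.5% of all tested genes were higher and 32.4% lower. The ribonucleotide reductase subunit gene Rrm2 rose by 2.33 ± 0.15, with 9.42 ± 1.00 FPKM in IRI and 1.58 ± 0.270 in Sham (SD, n = 5 each). The replication licensing genes Mcm5 and Mcm3 rose by 1.65 ± 0.26 and 1.65 ± 0.19. Both had Sham libraries under 1 FPKM. With no filter they rose by 1.68 and 1.67 (edgeR adjusted p = 1.40e-05 and 5.78e-07). Ccne1, Ccnb1, Cdk1, Mki67 and Top2a missed the filter. With no filter, 11 of the 20 genes were higher and 0 lower, where 19.3% of the 30454 genes were higher and 18.0% lower. Adjusted p-values by edgeR of the called genes named from these lists ranged from 8.61e-08 for Sfn to 0.0427 for Cdkn2b.

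**Figure D5:**
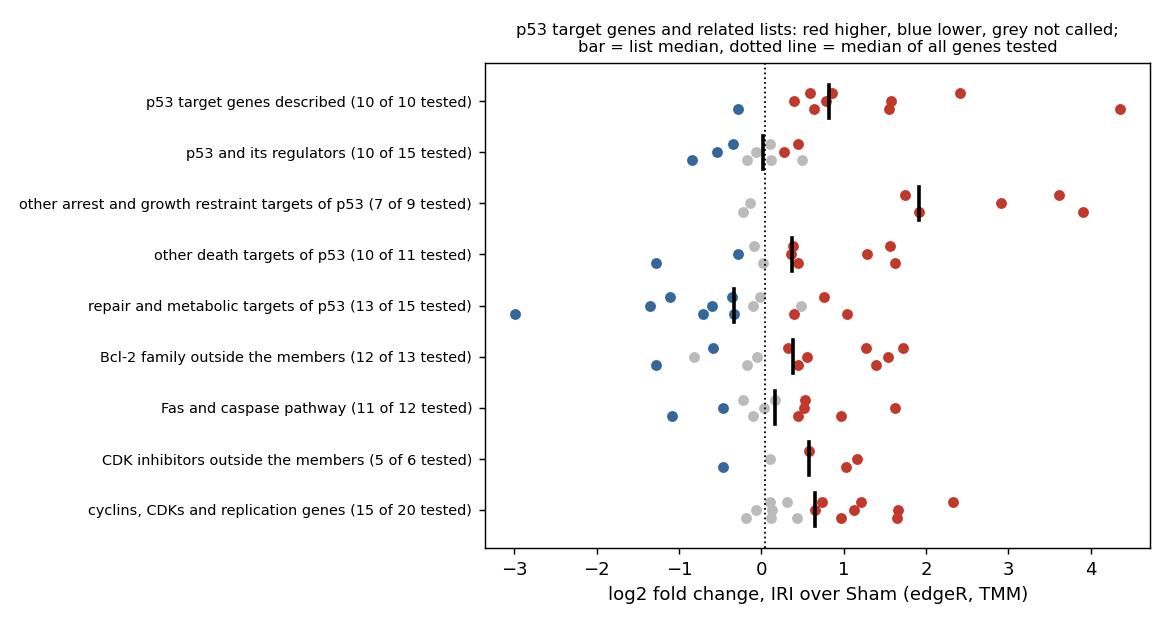
Log2 fold change, IRI over Sham, of every tested gene of each list by edgeR with TMM factors (red called higher, blue called lower, grey not called), with the list median as a bar and the median of all tested genes as a dotted line. Medians are 0.82 for the 10 p53 targets described first, 1.91 for other arrest and growth restraint targets, 0.38 for other death targets and -0.34 for repair and metabolic targets.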

How the data were processed

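Poly(A)-selected kidney RNA was sequenced as paired reads of 150 bases, per the labels. The authors deposited whole-number counts per gene and FPKM for each of 10 libraries; the submitters' processing notes list cutadapt 1.9.1, HISAT2 2.0.1, HTSeq 0.6.1 and build GRCm39 with neither roles nor settings. Symbols came from a reference table by gene ID (52083 of 55359 IDs matched). The 10 genes and all lists were chosen with earlier results of these data known.

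The gene test was edgeR's quasi-likelihood test (edgeR 4.0.16, R 4.3.3; TMM factors, Benjamini-Hochberg) on the counts of 13324 genes that reached 1 FPKM in no fewer than 5 libraries and held 99.0% to 99.3% of the counts of each library; calls were made at an adjusted p under 0.05. Standard errors are the log2 fold change over the square root of F. The procedure was tested on simulated data in which few genes changed, in either direction, so that test does not check the choice of scaling. Ratios of genes within a library used log2 of counts plus 0.5. Counting error only is covered by depth. From each list the text names up to 3 called genes of largest change whose mean FPKM is 1 or more, besides the 10 targets, Trp53 and Mdm4; others are said to be named after their values were seen, or are named as missing the filter, not called or as members of a count of 5 or fewer. The result of 1 gene that this rule takes is left out. Alternatives were other scalings, filters and pseudocounts, DESeq2 1.42.0, limma 3.58.1, a replicate block and leaving out each library.

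The labels state no pairing by replicate number, and the main fit used none. Same-numbered libraries had correlations of deviations of -0.25 to 0.06, which do not settle whether the numbers pair libraries.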

Additional observations from a re-analysis of the deposited data

Results flagged for a closer look

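Of 94 groups of 5 values examined (the named genes and the 12 ratios, in each group), 9 held a library far from the other 4. Chance gives about 1 in 20 for a single group of values. The ratios reuse genes that were also examined alone, so the 94 are not independent and the 9 cannot be set against that rate. In IRI replicate 1, Pmaip1 was at 41.7 FPKM (13.6 to 16.7 in the other IRI libraries), Plk3 at 106 FPKM (47.2 to 64.1) and Cdkn1c at 35.15 FPKM (15 to 19.6). In the same library the log2 ratio of Ccng1 to Pmaip1 was 0.42 (1.97 to 2.39). The ratio of Ccng1 to Bbc3 was 5.35 in IRI replicate 3 (4.38 to 4.58). Sham replicate 3 stood above the others for Cdkn1a over Bax, at -0.37 (-1.99 to -1.53), and Cdkn1a over Fas, at 1.07 (0.14 to 0.34). Sham replicate 1 was low for Cdkn1a over Pmaip1, at -0.0838 (0.68 to 0.82), and Sham replicate 5 was high for Gdf15, at 5.11 FPKM (2.93 to 3.49).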

How the results depend on the processing

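The count of p53 targets called higher was 8 or 9 under all 18 alternatives. The 1 lower call, Ccng1, was 0 calls with library totals (log2 fold change -0.0225), limma on log2(FPKM + 1) (-0.0341), limma on log2(FPKM + 0.1) (-0.0349) and no filter (-0.26). With the replicate block Fas was not called (0.40); leaving out single libraries gave Fas 0.33 to 0.49. The block changed no other call of the 10 genes. An exact sign-flip permutation test of the ratios over replicate numbers (a replicate block) cannot go below p = 0.0625, so none of the 10 called changes could pass it: 3.67, 2.81, 2.07 and 3.94 for Cdkn1a over Bax, Bbc3, Pmaip1 and Fas, -0.95, -1.81, -2.56 and -0.68 for Ccng1, and -0.79 and -1.54 for Plk2 over Bbc3 and Pmaip1. Leaving out single libraries gave Plk2 over Bbc3 changes of -0.997 to -0.684 and Plk2 over Bax changes of -0.21 to 0.22, of either sign. For all tested genes, higher calls ranged from 4221 to 6322 and lower calls from 3139 to 5486, with 66.8% of calls higher under library totals and 51.6% with TMM factors. Each of the 10 genes had at least 24 counts in every library.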
